A study of Arabidopsis thaliana with 5 samples.

Results

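The histone genes of Arabidopsis thaliana were compared between the cotyledons (seed leaves) of wild-type Col-0 seedlings and those of the mutant line ckg. The set held 45 loci, listed by locus identifier: 13 H2A, 11 H2B, 10 H3, 8 H4 and 3 linker histone H1 genes. Of these, 44 were among the 25433 genes for which the array carried a probe matched to a locus, and AT3G53650, an H2B gene, had no matched probe. The 44 had 66 probes, and 41 members had signal that could be tested. By kind, 27 loci were canonical genes (H2A, H2B, H3.1 and H4), 15 encoded replacement or specialised variants and 3 encoded linker histones.

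Col-0 is a standard laboratory accession, and the ckg plants carry a mutation in that line's namesake gene, taken from outside knowledge to be AT5G50915, CYTOKININ-RESPONSIVE GROWTH REGULATOR, a basic helix-loop-helix transcription factor. The labels give no allele, and the genotype field of ckg samples reads cgr, not ckg as in the titles. All plants were 7 days old and grew in long days of 16 h light and 8 h dark. Whole cotyledon RNA of 2 Col-0 and 3 ckg biological replicates was hybridised to 1 single-colour Agilent array each, and the question posed by the design is which transcripts differ between the genotypes. The cells of a whole cotyledon are mixed, so that fewer cells of a type and less RNA per cell cannot be told apart in any value below.

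Histones are the proteins around which nuclear DNA is wrapped: H2A, H2B, H3 and H4 form the core of the nucleosome, and H1 binds the DNA that links nucleosomes. Canonical core histones are made mainly in S phase, when newly copied DNA is packaged, whereas replacement variants can be built into chromatin outside DNA replication. In plants H3.1 is placed behind the replication fork by chromatin assembly factor, H3.3 is placed at transcribed genes, H2A.Z lies near the starts of genes, H2A.W marks heterochromatin, H2A.X is phosphorylated at DNA breaks and CENH3 marks centromeres. These assignments of loci to variants are general knowledge and were not taken from the array annotation.

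Levels are given below as multiples of the 75th percentile of processed signal on the same array, in the order Col-0 replicates 1 and 2, then ckg replicates 1, 2 and 3. They compare a gene between arrays and do not compare genes with each other, because each probe has its own brightness. Between 66.7% and 70.0% of the 43803 non-control spots were well above background on 4 arrays, against 52.4% on ckg replicate 3, which measured dim genes least well. Both Col-0 arrays lay on slide 1 and no ckg array did, so that genotype and slide cannot be told apart. Whether the 3 ckg arrays shared a slide was not determined. AT5G50915 was well above background on both Col-0 arrays and on 0 of 3 ckg arrays, with processed signals of 1070 and 962 against 6.46, 16.5 and 51.3. Of the 5 cotyledon and mesophyll markers, all were above background on every array. Their summed level was 526 and 515 in the wild type and between 477 and 581 in ckg. LHCB2.1, the dimmest of the 5, adds little to this sum. For 2 of the 5, RBCS1A and LHCB2.1, all ckg arrays were below both Col-0 arrays (40%, against 22.7% of all genes).

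Most histone transcripts had a lower mean in ckg. Each of the 5 H3.1 genes was lower, as were HTA6 (H2A.W) and HTA8 and HTA11 (H2A.Z), whereas members with every ckg array above Col-0 were HTA9 (H2A.Z), AT4G40030 and AT4G40040 (H3.3), RAT5 (canonical H2A), AT1G07660 (H4) and AT2G30620 (a linker histone). The sign of AT4G40040 and of RAT5 turned under other processing, and AT5G10980, the other H3.3 gene, had a lower mean. No member passed the adjusted threshold. With limma and Benjamini-Hochberg adjustment, 0 of the 18123 genes tested had an adjusted p under 0.05 (0%), while 1778 lower and 1505 higher genes had an unadjusted p under 0.05. Of the 41 tested histone members, 30 had a lower mean in ckg and 11 a higher one, which makes 73.2% lower against 51.3% of all genes tested. An unadjusted p under 0.05 was reached on the lower side by 11 members (26.8%), against 9.81% of all genes, and on the higher side by 1 member (2.44%), against 8.30%. All ckg arrays were lower than both Col-0 arrays for 18 members (43.9%), against 22.7% of all genes, and above for 6 members (14.6%), against 19.5%. The median log2 difference was -0.23 over the members and -0.01 over all genes. With each gene set to a mean of 0 across arrays, the members averaged 0.30 and 0.04 in Col-0. In ckg they averaged -0.11, -0.17 and -0.06. Col-0 replicate 2 thus lay nearer to each ckg array than to Col-0 replicate 1. None of the members was as much as 2-fold lower in this fit (0 of 41, against 1.01% of all genes). Under at least 1 alternative 7 members were, among them AT5G65360 (-1.03 with normexp background correction) and HTA6 (-1.19 without Col-0 replicate 2). Of the 41 members, 39 were well above background on every array, and with the test restricted to such genes 11 members were lower and 1 higher at unadjusted p, against 10.1% of genes lower.

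**Figure D1:**
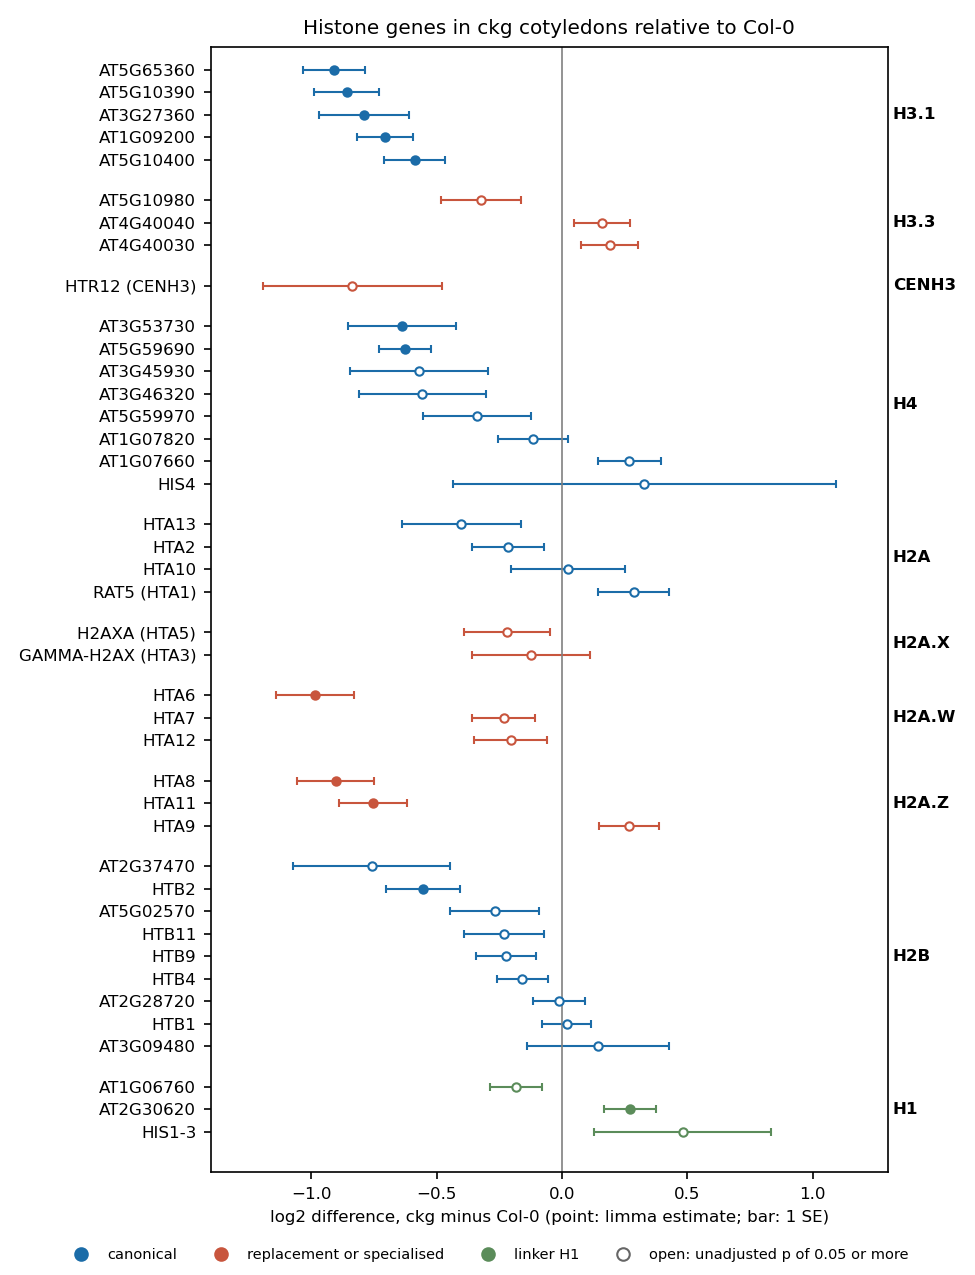
Log2 difference, ckg minus Col-0, of each of the 41 tested histone genes, grouped by histone type. Points are limma estimates from 2 Col-0 and 3 ckg arrays with bars of 1 standard error, and filled points have an unadjusted p under 0.05. The 5 H3.1 genes lie between -0.91 and -0.59, and the 3 H3.3 genes between -0.32 and 0.19.

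The 11 members on the lower side were the 5 H3.1 genes, HTA6, HTA8, HTA11, HTB2 (an H2B gene), AT5G59690 and AT3G53730 (H4 genes). Their levels were between 1.47-fold and 1.98-fold lower in ckg, with adjusted p between 0.0959 and 0.229. Each of the 11 was lower in ckg under all 15 alternative settings. For 9 of them the unadjusted p also stayed under 0.05 in all 15, the exceptions being HTB2 (14 of 15) and AT3G53730 (9 of 15). The lowest adjusted p of any member under any alternative was 0.0626, so no member passed under any of them.

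H3 was the class with the lowest median, -0.70 over 9 tested members. The canonical H3.1 genes encode the H3 form that is tied to replication. AT5G65360 had levels of 10.6 and 9.40 in the wild type and of 4.90, 5.56 and 5.55 in ckg. All ckg values lay below both Col-0 values, a log2 difference of -0.91 (SE 0.12, adjusted p = 0.0959) or 1.88-fold. AT5G10390 had levels of 1.66 and 1.35 against 0.829, 0.851 and 0.797, a difference of -0.86 (SE 0.13, adjusted p = 0.103). Here too the groups were apart, and the 3 ckg arrays lay closer to each other than the Col-0 arrays did.

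The other H3.1 genes had the same order of arrays. AT3G27360 had levels of 3.097 and 2.14 in the wild type against 1.44, 1.502 and 1.53 in ckg, a log2 difference of -0.79 (SE 0.18, adjusted p = 0.152). AT1G09200 had levels of 13.2 and 11.6 against 7.89, 7.39 and 7.44, a difference of -0.70 (SE 0.11, adjusted p = 0.108). AT5G10400 had levels of 4.82 and 3.99 against 2.95, 2.91 and 2.90, a difference of -0.59 (SE 0.12, adjusted p = 0.138). In each of the 5 genes Col-0 replicate 1 was the highest array, and no ckg array reached Col-0 replicate 2. The median of the 5 was -0.79, and leaving out Col-0 replicate 1 made it -0.61, and leaving out replicate 2 made it -0.999. For AT3G27360 alone of the 5 did a setting move the value by over 1.5 times, to -0.52 without Col-0 replicate 1. Probe sequences were not used here, and because these genes encode near-identical messages, whether the probes separate the copies is not known.

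The H3.3 genes, whose product replaces H3 at transcribed genes, had a median difference of 0.16 and none had an unadjusted p under 0.05. The median was 0.08 with normexp and in the authors' deposited series table, and -0.0032 over every probe. AT4G40030 had levels of 12.8 and 14.3 in the wild type against 15.4, 16.4 and 14.7 in ckg, a log2 difference of 0.19 (SE 0.11, adjusted p = 0.420). AT4G40040 had levels of 41.5 and 41.3 against 45.4, 43.6 and 49.9, a difference of 0.16 (SE 0.11, adjusted p = 0.479). For both genes all ckg arrays were higher than both Col-0 arrays by a small margin. AT5G10980 had levels of 11.4 and 14.8 against 9.995, 9.70 and 11.6, a difference of -0.32 (SE 0.16, adjusted p = 0.348), and its groups overlapped. The signs of AT4G40040 and AT5G10980 turned with the processing. With background corrected by normexp they were -0.03 and 0.08, and in the authors' deposited series table -0.04 and 0.08.

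With each gene set to a mean of 0 across arrays, the H3.1 genes averaged 0.61 and 0.31 in the wild type and -0.33, -0.29 and -0.31 in ckg. The H3.3 genes averaged -0.09 and 0.08 in the wild type and -0.03, -0.03 and 0.07 in ckg. Within each array, the H3.1 mean minus the H3.3 mean was 0.70 and 0.23 in the wild type and -0.30, -0.26 and -0.37 in ckg, all log2 differences. Because the centring sets where 0 lies, only the order of arrays counts, and this gap was larger on both Col-0 arrays than on any ckg array. It was not tested, since the members were chosen with results of these data known.

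**Figure D2:**
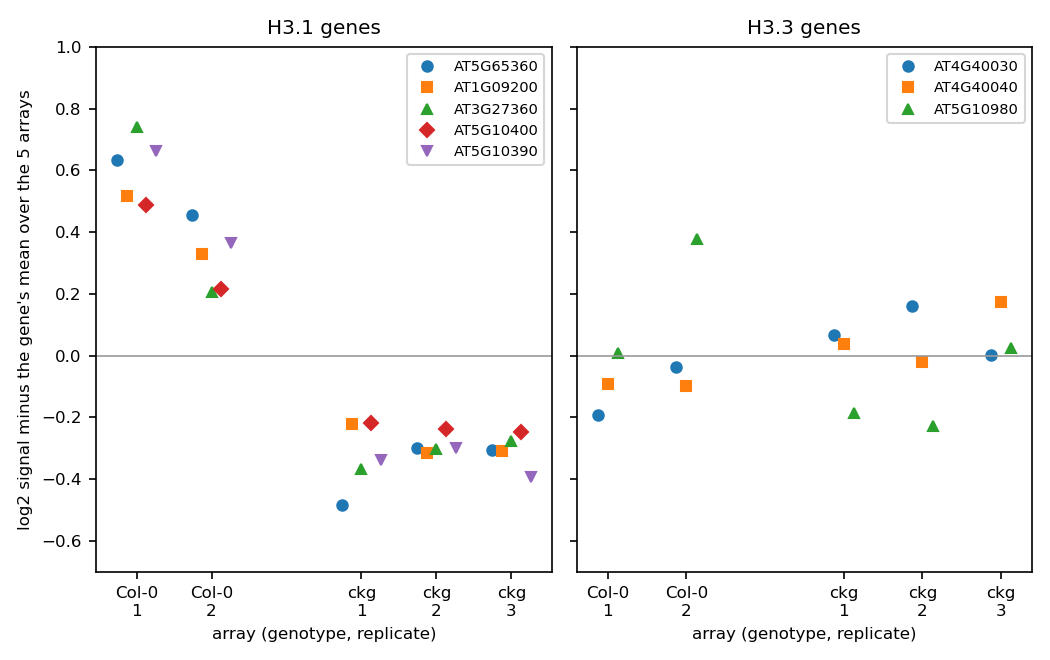
Log2 level of each H3.1 and H3.3 gene on each of the 5 arrays, centred on the gene's own mean. Each symbol is 1 gene, and the arrays stand in the order Col-0 replicates 1 and 2, then ckg replicates 1 to 3. All H3.1 genes lie above 0 on both Col-0 arrays and below 0 on all ckg arrays. Of the H3.3 genes, AT4G40030 and AT4G40040 lie below 0 on both Col-0 arrays and AT5G10980 lies above. On the ckg arrays AT4G40030 lies above 0 throughout, and AT4G40040 and AT5G10980 lie on both sides.

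HTR12 (AT1G01370), the centromeric H3, had levels of 0.109 and 0.0722 in the wild type and of 0.0626, 0.0603 and 0.0324 in ckg. The groups did not overlap, and the log2 difference was -0.84 (SE 0.36, adjusted p = 0.297). The probe was dim, above background on both Col-0 arrays and on 2 of 3 ckg arrays, and so was tested only through Col-0, the group where it was higher. Its difference shrank to -0.54 without Col-0 replicate 1, -0.53 without ckg replicate 3 or with the replicate block, and -0.43 with normexp. AT1G13370, an atypical H3 gene, was not above background on any array.

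In the H2A class 9 of 12 tested members were lower in ckg, with a median of -0.22, which became -0.11 when Col-0 replicate 1 was left out and -0.33 when replicate 2 was. Among the H2A.W genes, whose product is found in heterochromatin, HTA6 (AT5G59870) had levels of 6.97 and 5.27 in the wild type and of 3.17, 2.87 and 3.16 in ckg. Every ckg array was below both Col-0 arrays, a log2 difference of -0.98 (SE 0.15, adjusted p = 0.106), the lowest value among the tested members. HTA7 (AT5G27670) had levels of 4.37 and 3.68 against 3.21, 3.43 and 3.61, a difference of -0.23 (SE 0.13, adjusted p = 0.387) with groups barely apart, and it was -0.11 without Col-0 replicate 1. HTA12 (AT5G02560) had levels of 0.366 and 0.419 against 0.362, 0.367 and 0.296, a difference of -0.20 (SE 0.15, adjusted p = 0.494) with overlapping groups, and it was -0.10 without ckg replicate 3. The H2A.W genes were thus all lower on average, and HTA6 alone of the 3 had an unadjusted p under 0.05.

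The H2A.Z genes split. H2A.Z sits in nucleosomes near transcription starts and is exchanged for H2A by a remodelling complex. HTA8 (AT2G38810) had levels of 0.188 and 0.158 in the wild type against 0.101, 0.0966 and 0.0806 in ckg, a log2 difference of -0.90 (SE 0.15, adjusted p = 0.115). Its processed signal on ckg replicate 3 was 179, near 157, the lowest signal called above background on that array. HTA11 (AT3G54560) had levels of 1.72 and 1.497 against 1.06, 0.922 and 0.879, a difference of -0.76 (SE 0.14, adjusted p = 0.120). In both genes the ckg arrays all lay below the Col-0 arrays. HTA9 (AT1G52740) went the other way, with levels of 22.8 and 24.7 against 26.5, 28.1 and 31.3, a difference of 0.27 (SE 0.12, adjusted p = 0.317). All 3 ckg arrays were above the Col-0 arrays for HTA9, and its other probe also had a positive difference, 0.13. HTA4 (AT4G13570), a divergent member of this branch, was not above background on any array.

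Among the 4 canonical H2A genes, 2 were lower and 2 higher, and none had an unadjusted p under 0.05. RAT5 (HTA1, AT5G54640) was very dim, with levels of 0.0174 and 0.0178 against 0.0240, 0.0222 and 0.0186, a log2 difference of 0.29 (SE 0.14, adjusted p = 0.349). It was above background on both Col-0 arrays and 2 of 3 ckg arrays, and its sign turned to -0.51 under quantile scaling. HTA13 (AT3G20670) had levels of 5.10 and 3.96 against 2.66, 3.48 and 4.26, a difference of -0.40 (SE 0.24, adjusted p = 0.420). HTA2 (AT4G27230) had levels of 6.48 and 5.51 against 4.68, 5.05 and 5.78, a difference of -0.21 (SE 0.14, adjusted p = 0.468). In both HTA13 and HTA2, ckg replicate 3 lay between the Col-0 arrays. Without Col-0 replicate 1 their differences were -0.22 and -0.098. HTA10 (AT1G51060), with levels of 3.14 and 2.68 against 2.55, 2.58 and 3.89, had a difference of 0.02 (SE 0.23, adjusted p = 0.967).

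The H2A.X genes encode the form that is phosphorylated at DNA breaks. H2AXA (HTA5, AT1G08880) had levels of 13.2 and 11.4 against 9.41, 9.82 and 12.7, a log2 difference of -0.22 (SE 0.17, adjusted p = 0.524). GAMMA-H2AX (HTA3, AT1G54690) had levels of 0.504 and 0.381 against 0.351, 0.356 and 0.523, a difference of -0.12 (SE 0.24, adjusted p = 0.807). In both genes ckg replicates 1 and 2 were below the Col-0 arrays and ckg replicate 3 was within or above their range.

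In the H2B class 7 of 9 tested members were lower in ckg, with a median of -0.22 (-0.14 without ckg replicate 2). HTB2 (AT5G22880) had levels of 5.70 and 4.66 in the wild type against 3.31, 3.32 and 3.92 in ckg, a log2 difference of -0.55 (SE 0.15, adjusted p = 0.176). AT2G37470 had levels of 11.1 and 8.62 against 7.27, 3.88 and 6.81, a difference of -0.76 (SE 0.31, adjusted p = 0.288). Groups were apart in both genes, and AT2G37470 varied most among the ckg arrays, with replicate 2 lowest, without which its difference was -0.47. HTB9 (AT3G45980) had levels of 25.35 and 24.2 against 21.8 and 20.6, a difference of -0.22 (SE 0.12, adjusted p = 0.403). Its spot on ckg replicate 3 was left out as an outlier; with it kept the difference was -0.36, and with the mean of probes -0.51.

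The remaining H2B genes had differences between -0.27 and 0.14. AT2G28720 had levels of 0.622 and 0.611 against 0.608, 0.584 and 0.646, a difference of -0.01 (SE 0.10, adjusted p = 0.968). HTB1 (AT1G07790) had levels of 1.60 and 1.70 against 1.65, 1.66 and 1.70, a difference of 0.02 (SE 0.10, adjusted p = 0.933). Neither gene separated the groups. HTB11 (AT3G46030) had levels of 14.6 and 12.1 against 10.68, 10.4 and 13.1, a difference of -0.23 (SE 0.16, adjusted p = 0.477), with ckg replicate 3 between the Col-0 arrays. AT1G08170, which encodes the seed form H2B.S, was not above background on any array.

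H4, which has no variants in this set, had a median of -0.45 over 8 genes, and this value rested on Col-0 replicate 1: without that array it was -0.14. AT5G59690 had levels of 23.1 and 22.7 in the wild type against 15.5, 13.98 and 15.1 in ckg, a log2 difference of -0.63 (SE 0.10, adjusted p = 0.113). Its groups lay well apart, and its Col-0 arrays nearly coincided. With normexp the difference was -0.40. AT3G53730 had levels of 7.42 and 4.72 against 3.56, 3.74 and 4.14, a difference of -0.64 (SE 0.22, adjusted p = 0.229), with most of the gap given by Col-0 replicate 1. It was -0.31 without that array. AT3G46320 had levels of 0.673 and 0.429 against 0.343, 0.318 and 0.447, a difference of -0.56 (SE 0.25, adjusted p = 0.317), and its groups overlapped. It was -0.23 without Col-0 replicate 1.

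HIS4 (AT2G28740) differed most between the Col-0 replicates. Its levels were 1.61 and 0.252 in the wild type against 0.782, 0.739 and 0.882 in ckg, and the processed signal of Col-0 replicate 1 was 7.54 times that of replicate 2. All ckg values lay between the Col-0 values, and the log2 difference was 0.33 (SE 0.76, adjusted p = 0.843). It was 1.67 without Col-0 replicate 1 and -1.01 without replicate 2. The H4 gene AT1G07660 had levels of 2.65 and 2.72 against 3.17, 2.97 and 3.62. All ckg arrays were above Col-0 for this gene, a difference of 0.27 (SE 0.13, adjusted p = 0.329).

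The linker histones had a median of 0.27, and 1 of 3 was lower in ckg. AT2G30620, a main H1 gene, had levels of 11.3 and 12.4 in the wild type against 14.1, 14.05 and 14.6 in ckg. It was the only member on the higher side with an unadjusted p under 0.05, a log2 difference of 0.27 (SE 0.10, unadjusted p = 0.0449, adjusted p = 0.267). AT1G06760, the other main H1 gene, had levels of 13.2 and 12.9 against 12.0, 11.7 and 10.8, a difference of -0.18 (SE 0.10, adjusted p = 0.406). The groups were apart in both, in opposite directions. For AT1G06760 the difference was -0.39 with normexp and -0.40 in the authors' deposited series table, both with an unadjusted p under 0.05. HIS1-3 (AT2G18050), a stress-inducible linker histone, had levels of 0.257 and 0.318 against 0.592, 0.406 and 0.264, a difference of 0.48 (SE 0.35, adjusted p = 0.502), with ckg replicate 3 inside the Col-0 range. It was 0.20 without ckg replicate 1 and 0.78 without ckg replicate 3, the latter with an unadjusted p under 0.05.

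By kind, of 26 tested canonical genes, 20 were lower in ckg (76.9%) and 8 of these had an unadjusted p under 0.05 (30.8%), with a median of -0.30. Of 12 tested replacement or specialised genes, 9 were lower (75%) and 3 had an unadjusted p under 0.05 (25%), with a median of -0.23. Over all genes tested 51.3% were lower and 9.81% were lower with an unadjusted p under 0.05. The canonical median depended on the Col-0 arrays: leaving out replicate 2 made it -0.61, and leaving out replicate 1 made it -0.20. Centred means per array were 0.37 and 0.01 in the wild type and -0.16, -0.22 and -0.01 in ckg for canonical genes, and 0.26 and 0.14 against -0.12, -0.14 and -0.14 for replacement genes. The canonical mean minus the replacement mean differed between ckg and Col-0 by 0.007, within a spread over arrays from -0.12 to 0.12. Within the replacement kind, HTA6, HTA8, HTA11 and the dim HTR12 lay between -0.98 and -0.76. AT5G10980, HTA7, H2AXA, HTA12 and GAMMA-H2AX lay between -0.32 and -0.12. HTA9, AT4G40030 and AT4G40040 lay between 0.16 and 0.27, and the signs of AT4G40040, AT5G10980 and GAMMA-H2AX turned under other settings.

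**Figure D3:**
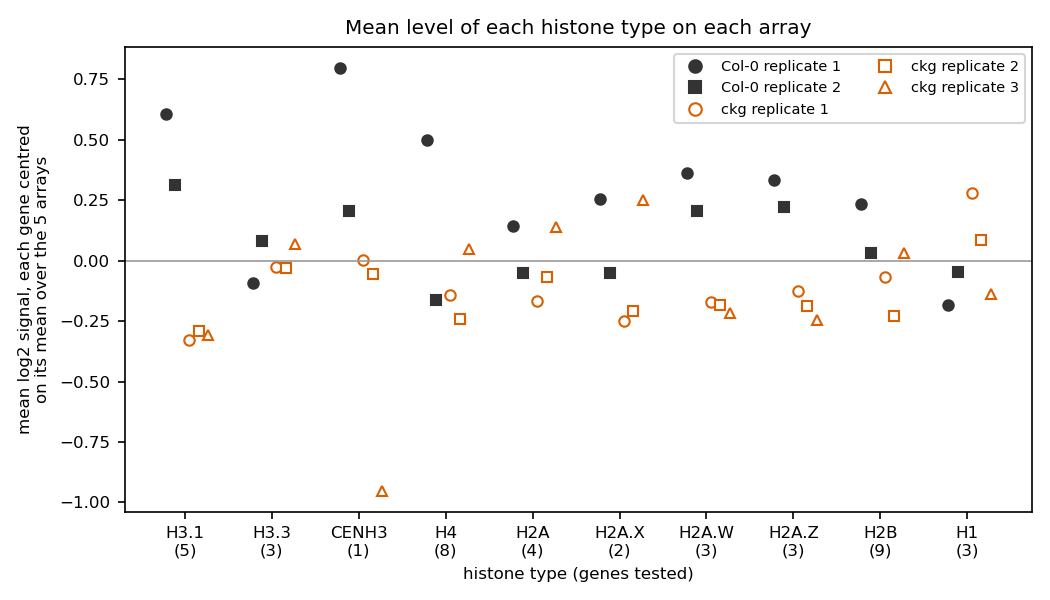
Mean log2 level of the tested members of each histone type on each of the 5 arrays, after centring each gene on its own mean. H3.1 has the 2 Col-0 arrays at 0.61 and 0.31 and the 3 ckg arrays between -0.33 and -0.29, whereas H4 has Col-0 replicate 1 at 0.50 and all other arrays between -0.24 and 0.05.

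The Col-0 replicates differed from each other in histone level. Replicate 1 was above replicate 2 in 31 of 41 members, with a median log2 difference of 0.21, against a median of -0.02 and 46.0% of genes above 0 among all genes tested. The gap was 0.59 at the median of H4 (7 of 8 members), 0.27 for H3.1 (5 of 5), 0.07 for H2B (7 members) and -0.16 for H3.3 (1 of 3). Without Col-0 replicate 1, 10 members had an unadjusted p under 0.05 on the lower side, against 4.34% of all genes in that fit. Without Col-0 replicate 2, 15 did, against 4.51% of all genes. The 5 H3.1 genes were among those members in both cases.

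**Figure D4:**
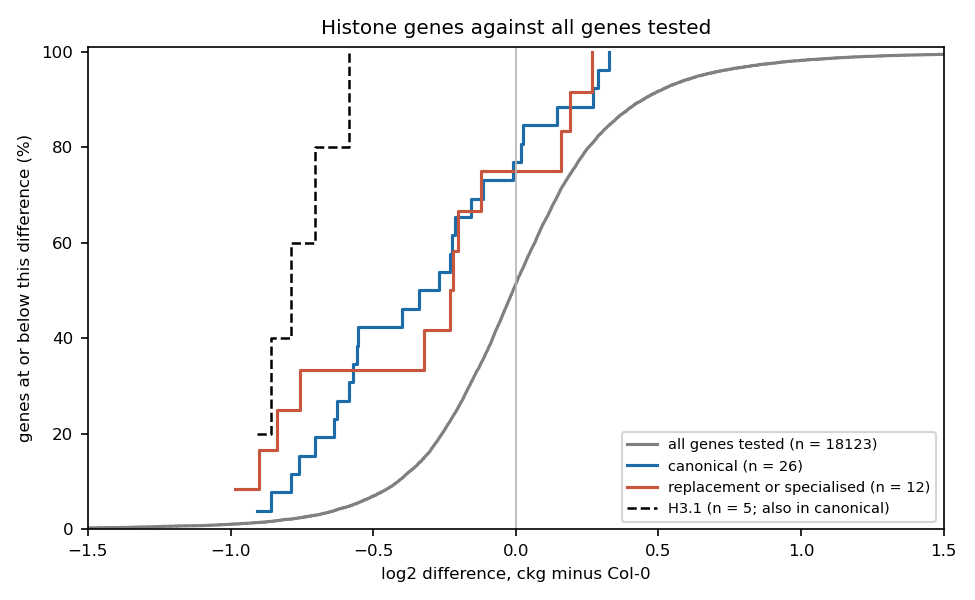
Cumulative share of genes (vertical axis, percent) at or below each log2 difference, ckg minus Col-0 (horizontal axis), for all 18123 genes tested, 26 canonical and 12 replacement histone genes and the 5 H3.1 genes, which are also among the canonical. The canonical and replacement curves lie to the left of the curve of all genes, with medians of -0.30, -0.23 and -0.01.

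Of the members, 17 had several probes. Among the 21 other probes that could be tested, 17 had the sign of the probe used and 4 the opposite sign, and the largest distance between probes of a gene was 0.72. The opposite signs were in HTB1 (-0.44 on the other probe), AT2G28720 (0.19), HTB11 (0.49) and AT4G40040 (-0.16). For AT5G59690 the other probes gave -0.25 and -0.30, smaller than the -0.63 of the probe used. The other probe of AT2G37470 gave -0.66, and another probe of H2AXA gave -0.73, larger in size than the -0.22 of the probe used. Counted over 62 tested probes, 45 were lower, and the share of all probes that were lower was not counted. An unadjusted p under 0.05 was reached on the lower side by 15, against 8.62% of all probes. On the higher side it was reached by 0, against 7.46%. Probes of the same gene are not separate members.

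The loci were spread over all chromosomes, with 12 on chromosome 1, 6 on chromosome 2, 10 on chromosome 3, 4 on chromosome 4 and 13 on chromosome 5. In the order of the TAIR10.1 gene table, 3 pairs of members had no gene between them. The H3.1 neighbours AT5G10390 and AT5G10400 were both lower (-0.86 and -0.59), the H3.3 neighbours AT4G40030 and AT4G40040 were both slightly higher (0.19 and 0.16), and HTA12 and the H2B gene AT5G02570 had -0.20 and -0.27. HTA6 and HTB4 (AT5G59910), with 5 genes between them, differed more, at -0.98 and -0.16.

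The genes that place histones into chromatin were listed alongside. Of 24 listed deposition genes 23 were tested: 16 were lower in ckg (69.6%, against 51.3% of all genes), 6 of them with an unadjusted p under 0.05 (26.1%, against 9.81%). At that level 0 were higher, and the median was -0.07. Of the 6, FAS2, TSK, ATXR6 and AT5G02520 were tested through Col-0 alone, the group where they were higher. In ckg they were above background on 2 of 3 arrays, and ATXR6 on 1 of 3. Of the 16 listed genes above background on every array, 2 were lower at that level. In the fit restricted to such genes, 10.1% of all genes were. FAS2, a chromatin assembly factor subunit that delivers H3 and H4 behind the fork, had a log2 difference of -1.04 (SE 0.13, adjusted p = 0.0941). ASF1B, a chaperone of H3 and H4, had -0.64 (SE 0.11, adjusted p = 0.115). The other 4 were TSK (-1.38), which binds H3.1 on new chromatin, ATXR6 (-1.60), which methylates H3.1, AT5G02520 (KNL2, -0.62), needed for CENH3 loading, and AT1G21610 (UBN1, -0.30), a partner of the H3.3 chaperone. HIRA, the H3.3 chaperone itself, had 0.24 (SE 0.11, adjusted p = 0.312) and was also tested through Col-0 alone, above background on 2 of 3 ckg arrays. The H2A.Z exchange genes PIE1, ARP6 and SEF lay between -0.09 and -0.01. These genes too missed the adjusted threshold.

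Markers of dividing cells were lower in ckg as well. All 8 listed S phase genes were lower in ckg with an unadjusted p under 0.05 (100%, against 9.81% of all genes). In all 8 every ckg array was below both Col-0 arrays (against 22.7% of all genes), and the median was -1.24. Of these, 6 were above background on every array, and MCM3 and MCM6 were tested through Col-0 alone, the group where they were higher. PCNA1, the sliding clamp of DNA replication, had -1.48 (SE 0.17, adjusted p = 0.0836), and MCM4, a subunit of the replicative helicase, had -0.996 (SE 0.13, adjusted p = 0.0941). The summed level of the 8 genes was 3.79 and 3.12 in the wild type and 1.58, 1.59 and 1.27 in ckg, with Col-0 replicate 1 highest as for H3.1. Of 5 genes of G2 and M phase, 4 were lower and 3 had an unadjusted p under 0.05 (60%, against 9.81% of all genes), 1 of which (CDKB2;2) was tested through Col-0 alone. Among the 3 were CYCB1;2 (-1.002, SE 0.32) and CDKB2;1 (-0.66, SE 0.24). KN had -0.22, and CYCB1;1, also tested through Col-0 alone, had 0.03, neither with an unadjusted p under 0.05. Of 3 E2F factors, transcription factors that activate or repress S phase genes, all were lower (100%, against 51.3% of all genes). Of these, 1 (ATE2F2 or E2FC, a repressor, -0.38) had an unadjusted p under 0.05 (33.3%, against 9.81% of all genes). E2F1, with -0.23, had the next smallest p. The part of cell division in the histone differences was not tested.

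Markers of other tissues were measured in part. Of 15 shoot apex and primordium markers, 6 were not above background on any array (STM, WUS, CLV3, KNAT1, CUC1 and UFO), 5 were above background on every array, 6 were tested and 0 had an unadjusted p under 0.05. The summed level of all 15, with AS1 the largest part, was 1.97 and 2.18 in the wild type and 2.01, 2.47 and 2.64 in ckg, with overlapping groups. The genes with the smallest p were GRF3 and AN3, with log2 differences of 0.45 and 0.09. Of 9 root markers, 6 were above background on no array and 2 were tested, SHV2 and CASP2, with log2 differences of 0.29 and 0.25. Both were tested through Col-0 alone, above background on 2 of 3 ckg arrays. These 2 summed to 0.0626 and 0.0817 in the wild type and 0.0955, 0.0896 and 0.0736 in ckg, with overlapping groups. The sum over all 9 root probes was 0.0798 and 0.105 against 0.116, 0.102 and 0.187, the highest on ckg replicate 3, where dim spots had the highest floor. The 5 mesophyll markers had a median of -0.03, with LHCB2.1 (-0.57, SE 0.24, adjusted p = 0.290) and RBCS1A (-0.24, SE 0.12, adjusted p = 0.362) at the smallest p.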

How the data were processed

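Spot intensities come from Agilent Feature Extraction (version 10.7.1.1), per the file headers, and the deposited processed intensity was background-subtracted and detrended, with no scaling between arrays. The scanner files also hold deposited raw median intensity and flags. A series table of log2 values was deposited too, with its normalisation not given in the sources used here. Within an array they ranked spots as the raw median intensity does (rank correlation 1 on each array), and each array's median was 8.49. The scale of these log2 values is therefore known only by rank, and they are levels, neither ratios nor centred per gene.

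Log2 processed intensity minus the array's 75th percentile was used, with a pseudocount of 0. Control and outlier spots (35 to 197 per array) were left out, 0 spots were saturated, and spots of a probe were averaged. Of 43603 probes, 34358 matched a locus of the TAIR10.1 gene table and 9245 did not. The build named by the array header differs from that table, so no coordinates are given. A gene was represented by its brightest probe and tested if, in Col-0 or in ckg, all arrays showed that probe well above background. Both HTR12 and RAT5 passed through Col-0 alone.

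The fit was limma 3.58.1 in R 4.3.3 (lmFit, then eBayes, two-sided) over all 5 arrays, with Benjamini-Hochberg adjustment over 18123 genes and a threshold of 0.05. It had 3 residual degrees of freedom, so the number of arrays limits the precision, and an exact permutation test of 1 value could not go below 0.1. SE is limma's standard error. The limma fit alone was tested on simulated gene values. The labels call the samples biological replicates. The samples were not treated as paired. Deviations of same-numbered arrays correlated at -0.09 and -0.10 across genes. With 2 Col-0 arrays, whose deviations mirror each other, these values cannot show whether replicate numbers pair the samples.

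Members, lists and the naming rule were chosen with earlier results of these data known, so no test was made over a list. Named were every tested member of types with up to 3 tested members, the 3 smallest and the largest p of larger types, members with a probe of opposite sign, and the 2 smallest p of each list. AT1G07660, HTB4, AT5G02570 and the other deposition genes with an unadjusted p under 0.05, HIRA, PIE1, ARP6 and SEF were named after their values were seen. Alternatives changed the background correction (normexp, offset 50, on median rather than mean signal, which was not used here), scaling, filter, probe choice, outlier spots, variance model and replicate block, used the series table, or left out each array. Promoter sequences were not used here, so no motif was counted.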

Additional observations from a re-analysis of the deposited data

How the results depend on the processing

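No histone member passed the adjusted threshold under any of the 15 alternatives at gene level, and 31 of 41 members kept their direction in all of them. The size moved by over 1.5 times or turned under at least 1 alternative for 30 members. The 5 H3.1 genes stayed lower with an unadjusted p under 0.05 in each.

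Genes past the adjusted threshold over the whole array, 0 in the reported fit, were 3 with normexp, 1 with median scaling, 3 in the authors' series table and 3 with an intensity trend in the variance. Members higher at unadjusted p, 1 as reported, were 0 with median scaling, quantile scaling, no filter, the mean of probes and every probe tested. Of all genes or probes in those fits, 5.12% to 7.52% were higher at that level. Members with every ckg array above Col-0, 6 as reported, were 3 with normexp and in the series table. Over every probe, 10 of 62 member probes were above. The share of all genes above was not counted under these settings. The replacement median was -0.17 with normexp and -0.33 with the replicate block. The H2A.Z median was -0.24 with no filter and -0.31 over every probe. The H3 median was -0.59 over every probe and -0.58 with the replicate block, and the H3.3 median -0.0032 over every probe. The replicate block gave 14 members lower at unadjusted p, against 8.84% of all genes, and changed no adjusted call of a member. The cause of these shifts was not tested.

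Single genes turned sign as follows. With normexp AT4G40040 had -0.026 and AT5G10980 0.078, and in the series table AT4G40040 had -0.037, AT5G10980 0.083 and RAT5 -0.082. RAT5 had -0.51 with quantile scaling. With the mean of probes HTB1 had -0.21, AT2G28720 0.091 and HTB11 0.13, and with the replicate block HTA10 had -0.18.

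Leaving out each ckg array in turn gave 0 to 3 genes past the adjusted threshold over all genes. In those fits 10 to 14 members were lower at unadjusted p, against 7.68% to 12.9% of all genes, and 0 to 2 higher, against 6.48% to 10.3%. Leaving out any 1 array gave 19 to 29 members with every ckg array below Col-0 (27.0% to 32.0% of all genes, as fewer arrays overlap less). It gave 6 to 8 above, and the share of all genes above was not counted in these fits. Where 1 Col-0 array was left, it was assumed to vary like the ckg arrays. Medians ranged from -0.33 to -0.18 over all members, from -0.33 to -0.11 for H2A, from -0.27 to -0.14 for H2B, from -0.80 to -0.52 for H3, from -0.75 to -0.14 for H4, from 0.20 to 0.34 for H1, from -0.61 to -0.20 for canonical and from -0.33 to -0.21 for replacement genes. They ranged from -0.999 to -0.61 for H3.1, from 0.10 to 0.17 for H3.3, from -0.85 to -0.66 for H2A.Z and from -0.36 to -0.25 for H2A.W. Genes that turned sign ranged from -0.025 to 0.063 for HTB1, from -0.18 to 0.14 for HTA10, from -0.32 to 0.079 for GAMMA-H2AX, from -0.049 to 0.024 for AT2G28720, from -1.01 to 1.67 for HIS4 and from -0.33 to 0.62 for AT3G09480. With 2 and 3 arrays, and no slide that held both genotypes, the precision is set by the number of arrays. Dim members such as RAT5 and HTR12 are limited by signal over background on ckg replicate 3.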
